A study of Mus musculus with 2 samples.

Results

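*Cxcr6*, *Cxcr3* and *Ccr2*, which encode chemokine receptors, and *Cxcl16*, which encodes the ligand of CXCR6, were followed in single liver leukocytes. The 4 genes were chosen by their symbols, out of 28692 genes in the files. The experiment held 1 library from mice given vehicle and 1 from mice given antibiotics in their drinking water for 1 week (ampicillin and metronidazole at 1 mg/mL each, neomycin and vancomycin at 0.5 mg/mL each), all of them 6-week-old females. CD45+ cells, that is, leukocytes, were sorted from the liver and run on the Chromium droplet platform, which counts each captured transcript once by its unique molecular identifier (UMI). The strain and the number of mice behind each library were not given for these libraries in the sources used here. With 1 library a group there was no replicate of either treatment and no test between treatments was made: each interval below is a 95% interval of counting error in these libraries only, and the treatment cannot be told apart from any other difference between the libraries.

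Chemokine receptors steer leukocytes along gradients of secreted or membrane-held chemokines, and the set of receptors on a cell is part of what decides where it settles. CXCR6 is the receptor for CXCL16, a chemokine that is made as a membrane protein and released by the proteases ADAM10 and ADAM17; in the liver it is known for holding NKT cells and resident NK cells in the sinusoids. CXCR3 responds to CXCL9 and CXCL10, which interferon induces, and is carried by effector T cells. CCR2 responds to CCL2 and its relatives and is best known for bringing monocytes out of the bone marrow into tissue.

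The libraries held 41474311 UMIs (vehicle) and 29811401 UMIs (antibiotic), and 9002 and 7050 barcodes passed as cells (at least 1500 UMIs, under 10% of them mitochondrial), with medians of 3515 and 3331 UMIs per cell. The same 93 barcode sequences were called as cells in both libraries. Each cell was placed in the first class whose gate it met: B cells (3016 vehicle and 1340 antibiotic cells, by *Cd79a*), plasmacytoid dendritic cells (pDC, 174 and 34, by *Siglech*), NK cells (256 and 99, by *Ncr1* without *Cd3*), iNKT cells (330 and 596, by *Trav11*, the variable segment of the invariant receptor), CD8 T cells (573 and 290, by *Cd8b1* with *Trac*), other T cells (3265 and 3689, by *Trac*) and myeloid cells (100 and 19, by *Lyz2* with *Csf1r*). Another 1288 and 983 cells met no gate. Markers outside the gates were highest in their own class for 6 of 6 genes in B cells, 8 of 8 in pDC, 7 of 7 in myeloid cells and 7 of 8 in NK cells in each library, but for 3 of 5 in iNKT cells, 1 (vehicle) and 2 (antibiotic) of 3 in CD8 T cells and 0 of 3 in other T cells. The last class takes any remaining cell with *Trac*, so an iNKT cell whose *Trav11* transcript was not seen falls into it. *Klrb1c*, which encodes the NK cell receptor NK1.1 and is also worn by many NKT cells, was seen in 57.2% and 77.7% of other T cells, against 65.5% and 84.4% of iNKT cells.

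On the mouse genome (GRCm38, mm10), *Cxcr6* lies on chromosome 9 at 123806475 to 123811760, plus strand, inside the span of *Fyco1* (123789500 to 123851899), which is read from the opposite strand. *Ccr2* lies on the same chromosome and strand at 124101950 to 124113557. *Cxcr3* lies on chromosome X at 101731535 to 101734269, minus strand. *Cxcl16* lies on chromosome 11 at 70453983 to 70459984, minus strand, and its first bases overlap the start of *Zmynd15* (70459433 to 70466202, plus strand). The sources used here do not say whether strand was used in counting, and without it the UMIs of overlapping genes could not be told apart.

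The bases before the starts of *Cxcr6* and *Cxcr3* are shown because their transcripts had the most similar class pattern of any pair among the 4 genes. They were taken from RefSeq (GRCm38.p6), which listed a promoter for 3 of the 4 genes, and are written 5′ to 3′ on the strand of the gene, ending at the last base that lies before the start in both RefSeq and GENCODE. For *Cxcr3* the GENCODE transcript starts further upstream, which shortens the sequence shown. Capitals mark ACCACA, the reverse complement of the RUNX core TGTGGT.
Cxcr6, chr9:123806227-123806474, plus strand: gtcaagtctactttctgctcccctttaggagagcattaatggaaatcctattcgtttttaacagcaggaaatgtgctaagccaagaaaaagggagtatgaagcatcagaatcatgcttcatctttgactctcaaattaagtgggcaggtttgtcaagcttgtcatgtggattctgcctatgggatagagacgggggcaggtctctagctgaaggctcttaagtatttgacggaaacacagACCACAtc
Cxcr3, chrX:101734270-101734397, minus strand: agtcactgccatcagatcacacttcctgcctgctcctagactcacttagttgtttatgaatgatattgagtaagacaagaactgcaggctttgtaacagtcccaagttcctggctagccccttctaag
Motifs were searched in the 250 bases before each RefSeq start. The match before *Cxcr6* lay 10 to 5 bases ahead of that start, and *Cxcr3* had a match as well, 110 to 105 bases ahead of it, which lies inside the GENCODE transcript and so outside the sequence shown. Either strand of TGTGGT was found in 14% of 32851 RefSeq windows of 250 bases, and the T-box core GGTGTG, on either strand, in 16.3% of them and in none of the 3 listed for these genes. A match describes the letters in the window and is not evidence of binding.

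*Cxcr6* was most abundant in iNKT cells, followed by other T cells, CD8 T cells and NK cells. Levels are given as counts per 1000000 UMIs of the class (CPM). In iNKT cells *Cxcr6* stood at 1111 (1059 to 1164) CPM in the vehicle library and 907 (869 to 946) in the antibiotic library, and in other T cells at 1006 (991 to 1022) and 810.3 (796 to 825). CD8 T cells held 281 (262 to 301) and 353 (321 to 387) CPM. The receptor was thus more abundant in the *Trav11*-positive and other T classes than in CD8 T cells of either library. The ratio of other T to CD8 T cells was 3.58 (3.33 to 3.84) in the vehicle and 2.30 (2.09 to 2.53) in the antibiotic library. In both libraries iNKT cells stood above other T cells beyond counting error. NK cells held 165 (138 to 195) and 304 (240.4 to 379.6) CPM, below CD8 T cells in the vehicle library and within counting error of them in the antibiotic library.

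In pDC *Cxcr6* stood at 78.3 and 84 CPM, in B cells at 44.6 and 48.6 CPM, and in myeloid cells at 47.3 CPM (23 UMIs) and 0 UMIs, where 3 UMIs would make 28.8 CPM. B cells, which are not known for this receptor, served as the background. Single B cells held up to 11 and 8 *Cxcr6* UMIs, and the parts of free RNA and doublets in this background were not tested. A *Cxcr6* UMI was seen in 7.0% and 7.54% of B cells at median depths of 2527 and 2148.5 UMIs. After each cell was thinned at random to 1500 UMIs, the share was 3.91% (3.25 to 4.67) in the vehicle library and 4.33% (3.30 to 5.56) in the antibiotic library. In pDC the thinned share was 6.32% (3.20 to 11) and 5.88% (0.720 to 19.7), and in vehicle myeloid cells 7% (2.86 to 13.9), all with intervals that reach the B cell share. The CPM of vehicle pDC (62.8 to 96.5) lay above that of vehicle B cells (40.3 to 49.3), while in the antibiotic library the ratio of pDC to B cells was 1.73 (0.999 to 2.82). In pDC the log2 ratio of antibiotic over vehicle was 0.10. It was 1.32 without cells marked as doublets (156 and 33 pDC left) and 1.53 with only cells that met 1 gate (148 and 30). Whether vehicle pDC stay above B cells in these settings was not tested. The thinned shares of iNKT cells, 73% (67.9 to 77.7) and 68.8% (64.9 to 72.5), of CD8 T cells, 24.4% (21 to 28.2) and 29% (23.8 to 34.6), and of NK cells, 17.6% (13.1 to 22.8) and 23.2% (15.3 to 32.8), lay well above that of B cells. The ungated cells held *Cxcr6* at 446 and 589.6 CPM. Before thinning a *Cxcr6* UMI was seen in 95.5% and 92.4% of iNKT cells and 84.8% and 86.5% of other T cells.

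**Figure D1:**
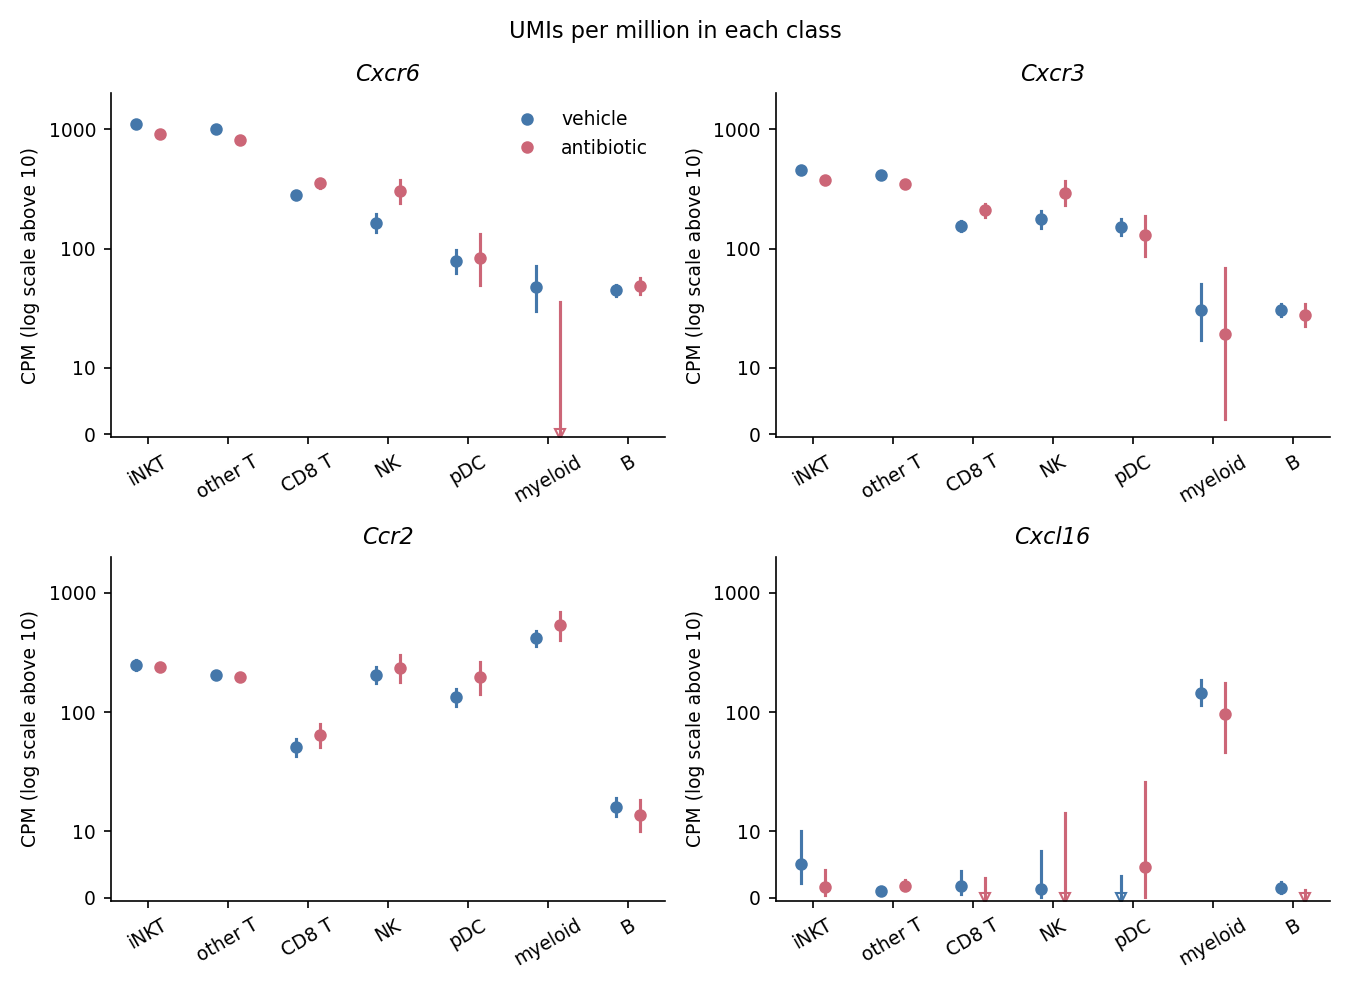
Level (CPM, log scale above 10 and linear below) of the 4 genes in each class. Points are the vehicle (blue) and antibiotic (red) libraries, bars are 95% counting intervals and open triangles mark 0 UMIs. *Cxcr6* and *Cxcr3* were highest in iNKT and other T cells, *Ccr2* and *Cxcl16* in myeloid cells.

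The plot of CPM by class shows 3 different orders. *Cxcr3* followed nearly the same order as *Cxcr6*: iNKT cells held 456 (423 to 491) CPM in the vehicle library and 375 (351 to 400.4) in the antibiotic library, and other T cells 415 (405 to 425) and 351 (341 to 361). Below them came NK cells, at 176 (148 to 208) and 292 (230.0 to 367), CD8 T cells, at 155 (141 to 169.9) and 209 (185 to 236), and pDC, at 153 (131 to 178) and 131 (86.8 to 189). In the vehicle library NK and CD8 T cells, and CD8 T cells and pDC, did not differ beyond counting error. In the antibiotic library NK cells were level with other T cells (ratio of other T to NK cells 1.20, 0.955 to 1.53) and above CD8 T cells. *Cxcr3* was seen in pDC more often than in B cells: 18.4% (12.9 to 25) of vehicle pDC and 17.6% (6.76 to 34.5) of antibiotic pDC had a UMI after thinning, against 3.61% (2.98 to 4.34) and 2.69% (1.89 to 3.70) of B cells. The unthinned shares were 59.2% and 47.1% of pDC and 6.70% and 4.93% of B cells, with median depths in pDC of 6252 and 6004.5 UMIs. Free RNA set from hepatocyte and hemoglobin genes came to 9.88% of UMIs in vehicle and 64.1% in antibiotic pDC, and barcodes of 1 to 50 UMIs held *Cxcr3* at 264 and 341 CPM, so that by this estimate free RNA covers the whole *Cxcr3* level of antibiotic pDC; set from *Cxcr6* in B cells, free RNA came to 10.1% and 9.02%. The vehicle pDC gate also held neutrophil genes at 4206 CPM summed over 7 genes, led by *S100a8* in 6.32% of its cells, against 0 UMIs in the antibiotic gate; their part in the pDC values was not tested.

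*Ccr2* was led by myeloid cells, at 415 (360.1 to 477) and 537 (405 to 697) CPM. It was next in iNKT cells, at 249.6 (225 to 276) and 240.0 (221 to 260.4), in NK cells, at 206 (176 to 239.9) and 234 (179 to 301), and in other T cells, at 203 (196 to 211) and 199 (191 to 206). Myeloid cells thus stood above these lymphocytes, and iNKT cells above other T cells in both libraries, with intervals that do not overlap. In the antibiotic library iNKT and NK cells, NK and other T cells, and other T cells and pDC, at 196 (141 to 265) CPM, differed by less than counting error, and in the vehicle library iNKT cells stood just above NK cells (ratio 1.21, 1.01 to 1.46), and pDC, at 133 (113 to 157) CPM, below other T cells. CD8 T cells held less, 51 (43.1 to 60.0) and 63.7 (50.5 to 79.1) CPM. B cells were lowest, with 16 and 13.6 CPM and a thinned share of 1.13% (0.782 to 1.57) and 1.49% (0.914 to 2.30), against 24.7% (23.2 to 26.2) and 25.2% (23.8 to 26.6) in other T cells. CD8 T cells thus carried a lower *Ccr2* level than iNKT and other T cells while still lying above the B cell background, at a thinned share of 6.28% (4.44 to 8.59) and 6.55% (3.99 to 10.0).

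*Cxcl16*, the only ligand among the 4 genes, was sparse: all called cells together held 154 vehicle and 73 antibiotic UMIs. Myeloid cells stood apart, with 71 UMIs in 30 of 100 vehicle cells and 10 UMIs in 5 of 19 antibiotic cells, or 146 (114 to 184) and 95.8 (46 to 176) CPM. No other gated class passed 5.13 CPM, the level of vehicle iNKT cells, where 5 of the 8 UMIs came from 1 cell. In the antibiotic library B, NK and CD8 T cells had 0 *Cxcl16* UMIs, where 3 UMIs would make 0.889, 11.7 and 2.36 CPM. Other T cells of that library held 26 UMIs in 5 cells, 16 of them in 1 cell, and the ungated cells 32 UMIs in 8 cells, 16 of them in 1 cell. In the vehicle library the ungated cells held 43 UMIs in 24 cells and other T cells 14 UMIs in 9 cells.

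**Figure D2:**
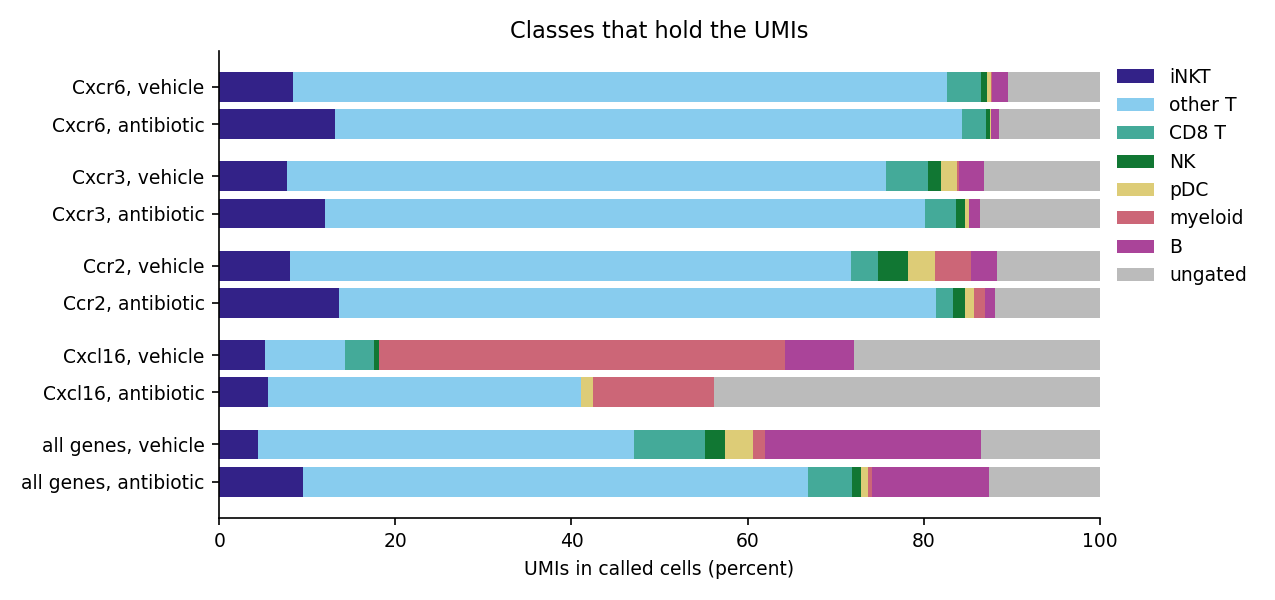
Share of each gene's UMIs in called cells (percent, horizontal axis) that lay in each class, for the 4 genes and for all genes together, with 1 bar a library. Other T cells held 74.2% and 71.2% of *Cxcr6* UMIs, against 42.7% and 57.4% of all UMIs.

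Because the classes differ in number, the classes that held most of a gene's transcripts were not always those with the highest level. Other T cells held 74.2% and 71.2% of the *Cxcr6* UMIs of called cells, and iNKT cells 8.40% and 13.2%. For comparison, other T cells held 42.7% and 57.4% of all UMIs and iNKT cells 4.38% and 9.49%, so both classes contributed more *Cxcr6* than their size. *Ccr2* lay mainly in other T cells too (63.7% and 67.8%), and myeloid cells, in which its level was highest, held 4.17% and 1.31%. For *Cxcl16*, myeloid cells held 46.1% (38.1 to 54.3) of the vehicle UMIs and 13.7% (6.77 to 23.8) of the antibiotic UMIs, while holding 1.37% and 0.409% of all UMIs. Of the 73 antibiotic UMIs, 16 lay in 1 other T cell and 16 in 1 ungated cell. The intervals take no account of this, so no shift between classes can be read from these shares. The stacked bars of UMI sources show this split, and that B cells, with 24.6% of all vehicle UMIs, held 1.89%, 2.89% and 2.89% of the *Cxcr6*, *Cxcr3* and *Ccr2* UMIs.

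Between the libraries, the direction for *Cxcr6* and *Cxcr3* depended on the class. In iNKT cells the *Cxcr6* level of the antibiotic library was 0.816 (0.766 to 0.870) of the vehicle level and in other T cells 0.805 (0.786 to 0.825). *Cxcr3* was lower in the same classes, at ratios of 0.822 (0.745 to 0.908) and 0.846 (0.815 to 0.877). In NK cells, in contrast, both receptors were higher after antibiotics, with ratios of 1.85 (1.38 to 2.46) for *Cxcr6* and 1.66 (1.24 to 2.21) for *Cxcr3*. In CD8 T cells they were also higher, at 1.25 (1.11 to 1.41) and 1.35 (1.16 to 1.58). Whether the classes differ in their response was not tested, since there was 1 library a treatment.

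*Ccr2* differed less in iNKT, other T and NK cells, with ratios of 0.962 (0.844 to 1.10), 0.977 (0.929 to 1.03) and 1.14 (0.831 to 1.54). The ratio was 1.25 (0.939 to 1.65) in CD8 T cells and 1.29 (0.943 to 1.74) in myeloid cells. Each of these intervals holds 1. In pDC the ratio was 1.47 (1.02 to 2.08), from 150 and 42 UMIs. The ungated cells had ratios of 1.35 (1.19 to 1.52) for *Ccr2*, 1.32 (1.24 to 1.41) for *Cxcr6* and 1.26 (1.15 to 1.37) for *Cxcr3*. *Cxcl16* in myeloid cells had a ratio of 0.656 (0.302 to 1.28), so that with 10 antibiotic UMIs no difference was detectable at this depth. B cells had ratios of 1.09 (0.902 to 1.31) for *Cxcr6*, 0.908 (0.710 to 1.15) for *Cxcr3* and 0.851 (0.596 to 1.19) for *Ccr2*.

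**Figure D3:**
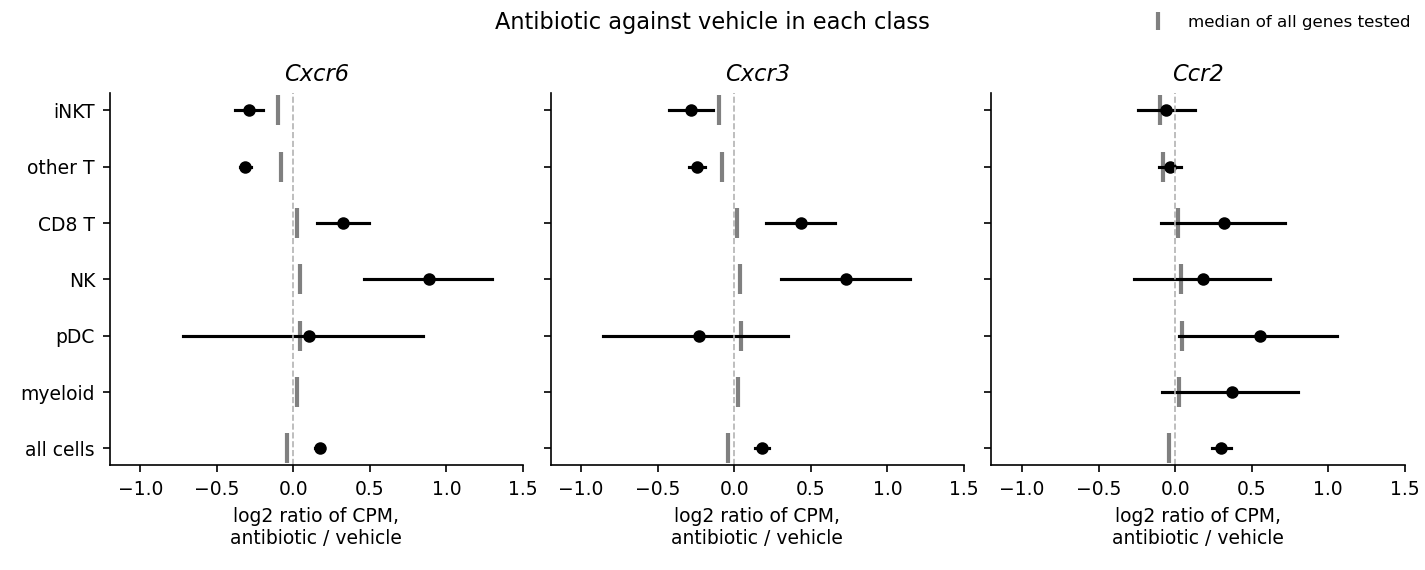
Log2 ratio of CPM, antibiotic over vehicle (horizontal axis), for the 3 receptors in the gated classes other than B cells and in all called cells. Points are ratios, bars 95% counting intervals, and gray ticks the median over all genes tested in the class; *Cxcr6* and *Cxcr3* have no value in myeloid cells. Both lay left of the tick in iNKT and other T cells and right of it in CD8 T and NK cells.

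These ratios were read against all genes that reached 50 CPM in either library and 20 UMIs over the pair, as in the plot of log2 ratios. A ratio of 1.5 in either direction was passed by 22.7% of such genes in NK cells, where 2 of the 3 members measured, *Cxcr6* and *Cxcr3*, passed it. It was passed by 9.91% of genes in iNKT cells, 6.75% in other T cells, 5.79% in CD8 T cells, 21.4% in pDC and 8.98% in all cells, and by 0 of the 3 receptors in each of these. In myeloid cells it was passed by 37.5% of genes and by *Cxcl16* but not *Ccr2*, and in B cells by 4%, where no member reached 50 CPM. In NK cells *Cxcr6* stood at percentile 95.4 of the log2 ratios of all genes tested and *Cxcr3* at percentile 91.8. In CD8 T cells the percentiles were 86.9 and 92.5. In other T cells they were 19.5 and 26.5, and in iNKT cells 26.5 and 27.8, that is, within the lower part of the genes but not at its end. The median log2 ratio of all genes was -0.10 in iNKT cells and -0.082 in other T cells, with *Cxcr6* at -0.29 and -0.31. Ribosomal protein and mitochondrial genes took 34% of vehicle and 41.2% of antibiotic UMIs in iNKT cells, and scaling without them raised every log2 ratio by 0.17 in iNKT cells and 0.15 in other T cells, which left *Cxcr6* at -0.12 and -0.16.

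Over all called cells, the antibiotic library held more of each receptor: *Cxcr6* stood at 579 (572 to 587) and 653 (644 to 663) CPM, *Cxcr3* at 261 (256 to 266) and 296 (289 to 302), and *Ccr2* at 136 (132 to 140.2) and 168 (163 to 173). The cells were not of the same makeup: other T cells made up 36.3% of the vehicle and 52.3% of the antibiotic cells, iNKT cells 3.67% and 8.45%, and B cells 33.5% and 19%. With the classes of the antibiotic library weighted as in the vehicle library, the log2 ratio went from 0.17 to -0.19 for *Cxcr6* and from 0.18 to -0.11 for *Cxcr3*, a change of sign in both. For *Ccr2* it went from 0.30 to 0.092, and for *Cxcl16*, which had fewer UMIs in the antibiotic library, from -0.60 to -0.10.

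The distribution over cells was examined after thinning to 1500 UMIs. In other T cells the share of cells with no *Cxcr6* UMI was 31.9% in the vehicle and 34.3% in the antibiotic library, the share with 1 UMI 24% and 29.6%, and the share with 5 or more 5.45% and 2.20%. The lower *Cxcr6* level in this class thus lay mainly in fewer cells with many transcripts rather than in more cells with none. In iNKT cells the shares with 5 or more were 5.45% and 3.02%, and those with none 27% and 31.2%, with intervals that overlap. In NK cells a *Cxcr3* UMI was absent from 82.4% of vehicle and 69.7% of antibiotic cells, and in CD8 T cells from 82.5% and 76.9%.

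**Figure D4:**
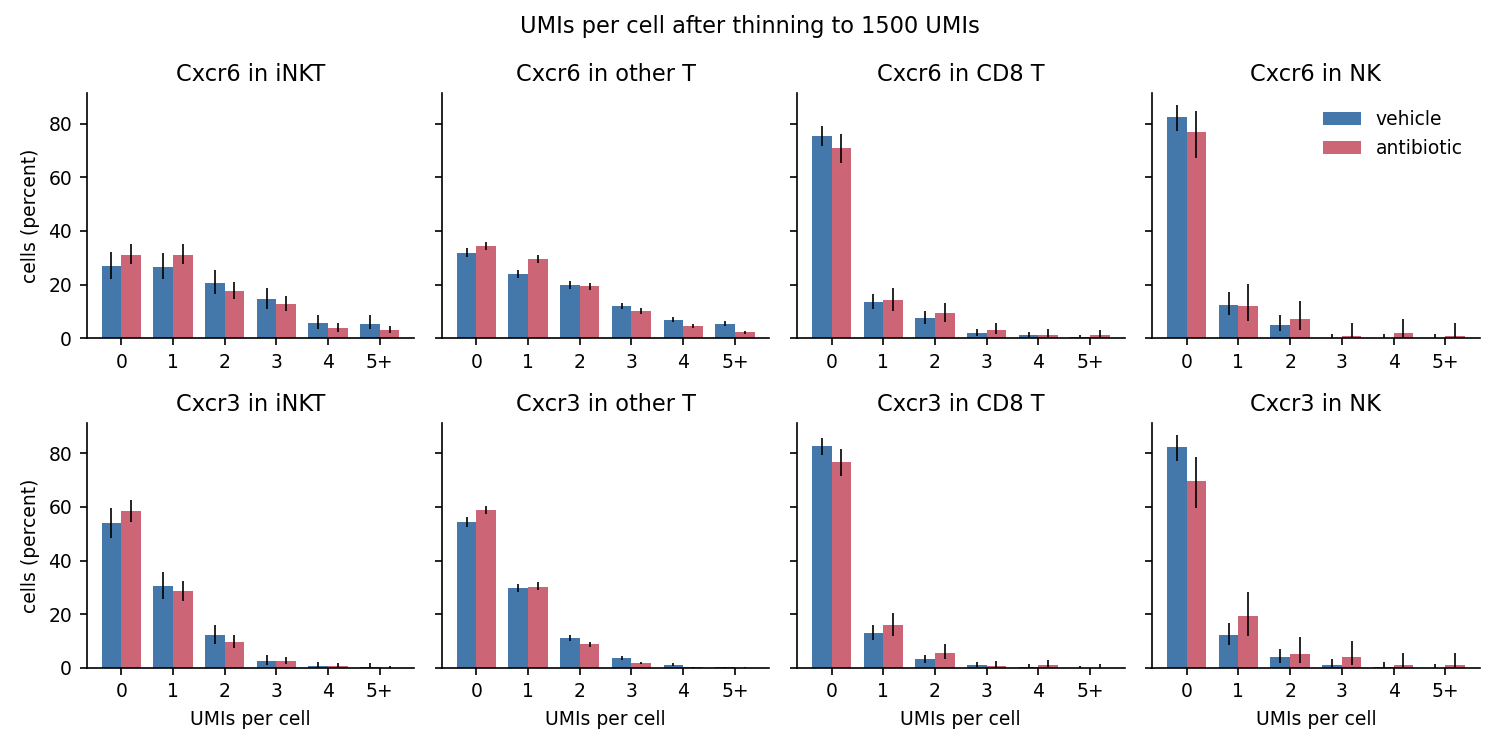
Percent of cells (vertical axis) with 0 to 4 or at least 5 UMIs of *Cxcr6* (top) and *Cxcr3* (bottom) after each cell was thinned to 1500 UMIs, in 4 classes of the vehicle (blue) and antibiotic (red) libraries; bars carry 95% exact binomial intervals. In other T cells 5.45% of vehicle and 2.20% of antibiotic cells had at least 5 *Cxcr6* UMIs.

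The classes were divided by other genes to find which cells held the receptors. NK cells with *Eomes*, the factor of conventional NK cells, and no *Itga1*, which encodes an integrin of liver-resident NK cells, held *Cxcr6* at 16.3 and 17.4 CPM (4 UMIs in 80 vehicle cells and 1 UMI in 23 antibiotic cells), within the B cell background. NK cells with *Itga1* and no *Eomes* were few, 11 and 7, and held *Cxcr6* at 785 (526 to 1128) and 575 (297 to 1004) CPM. The *Cxcr6* level was thus far higher in the *Itga1* than in the *Eomes* fraction, and *Cxcr3* was likewise, at 487 and 287 CPM against 57.1 and 69.8 in the *Eomes* fraction. *Ccr2* did not follow them: the *Eomes* fraction held 204 (151 to 269) and 314 (186 to 496) CPM. The higher *Cxcr6* level of antibiotic NK cells lay in the 165 and 69 cells with both genes or neither, at 191 (155 to 232) and 365 (281 to 465) CPM, a ratio of 1.91 (1.38 to 2.64). The *Eomes* fraction made up 31.3% of vehicle and 23.2% of antibiotic NK cells and the *Itga1* fraction 4.30% and 7.07%. The antibiotic NK gate also held less of the cytotoxic genes *Gzma* (12528 and 8158 CPM) and *Nkg7* (5587 and 3907 CPM). Of 8 listed NK markers, 2 were higher and 6 lower in that library, and 2 of the 6 passed a ratio of 1.5. A ratio of 1.5 in either direction was passed by 22.7% of all genes tested in NK cells. The median log2 ratio of the 8 was -0.41, against 0.040 over all genes tested. *Trac*, a T cell gene, was low in both libraries (48.7 and 39 CPM).

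In CD8 T cells the receptors were higher in cells with *Ccl5*, a chemokine gene of effector and memory cells. Cells with at least 3 *Ccl5* UMIs held *Cxcr6* at 447 (412 to 484) and 559.8 (504 to 619) CPM, and made up 42.2% and 49.7% of the class. The other cells of the class, set apart after the values of the *Ccl5* fraction were seen, held 130.3 (113 to 149.9) and 124 (97.6 to 156) CPM. The *Cxcr6* ratio was 1.25 (1.10 to 1.43) in the *Ccl5* fraction and 0.952 (0.720 to 1.25) in the others, so that a higher antibiotic level beyond counting error was seen in the *Ccl5* fraction and not in the rest; whether the fractions differ was not tested. *Cxcr3* stood at 272 and 337 CPM with *Ccl5* and 48.1 and 67.8 without, and *Ccr2* at 84.3 and 97.3 against 20.7 and 26.5 CPM.

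Among iNKT cells, those with *Klrb1c* and no *Cd4* held the most *Cxcr6*, 1204 (1131 to 1280.3) CPM in the vehicle and 941 (895 to 988) in the antibiotic library. Cells with *Cd4* held 1030.1 (926 to 1142) and 829 (744 to 921) CPM, and cells with neither 976 (878 to 1082) and 819 (717 to 931). The antibiotic level was lower in each of the 3 fractions, although the fraction with the most *Cxcr6* made up 53.9% of vehicle and 71.3% of antibiotic iNKT cells. Vehicle iNKT cells also held erythroid and platelet genes at 1754 CPM summed over 7 genes, against 7.44 in antibiotic iNKT cells, with *Hba-a1* in 2.12% of the vehicle cells; their part in the result was not tested.

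Other T cells with *Foxp3*, the factor of regulatory T cells, held little *Cxcr6*, 83.7 (50.4 to 131) and 119 (51.4 to 235) CPM, from 32 and 15 cells. Those with *Trdc*, a segment of the γδ receptor, held 816 (742 to 895) and 843 (747 to 948) CPM. In both of these fractions the libraries did not differ beyond counting error. Those with *Cd4* and no *Foxp3* held 915 (884 to 946) and 673 (641 to 706) CPM, a ratio of 0.736 (0.694 to 0.780), and the rest, which made up 73.3% and 82.3% of the class, 1068 (1048 to 1088) and 843 (826 to 859) CPM. The lower *Cxcr6* level of the antibiotic library thus lay in these last fractions, which together hold most of the class.

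**Figure D5:**
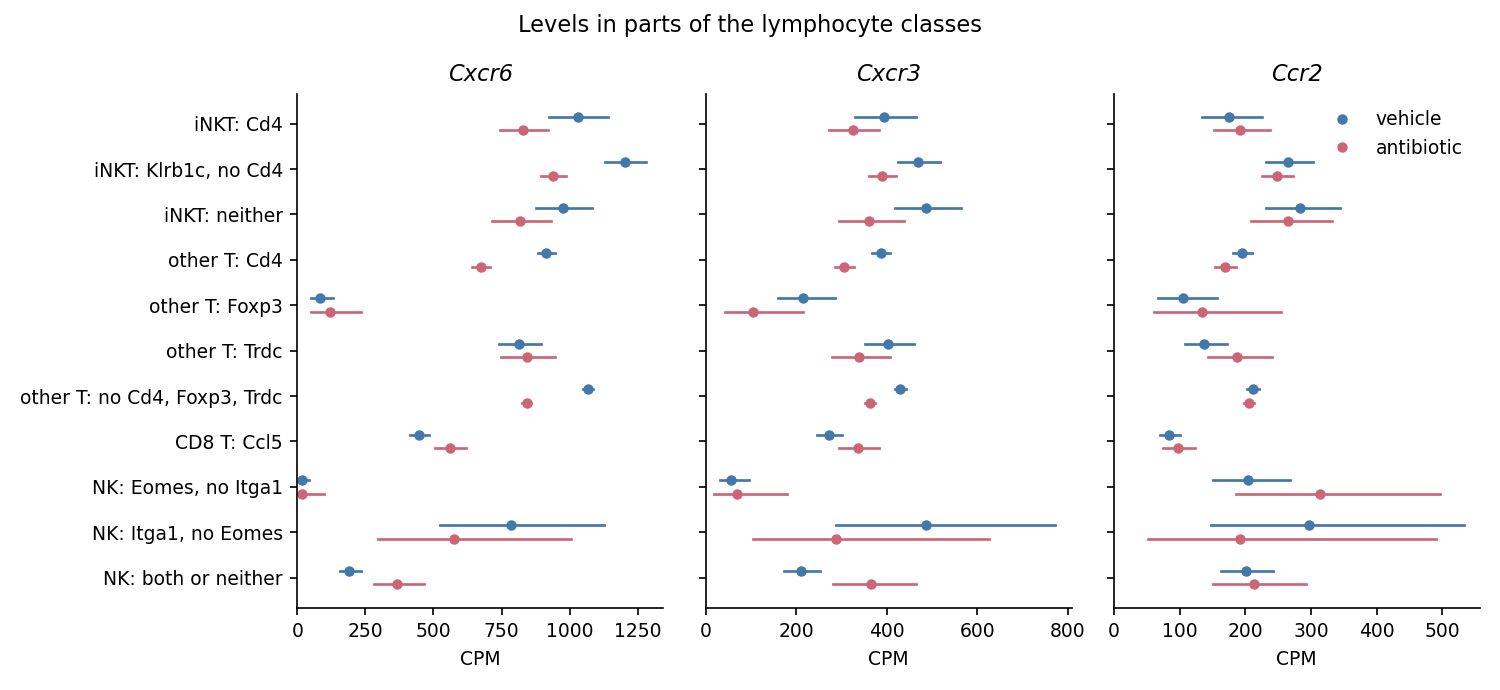
CPM (horizontal axis) of the 3 receptors in fractions of the lymphocyte classes set by other genes; points are the vehicle (blue) and antibiotic (red) libraries and bars 95% counting intervals. *Cxcr6* was near background in NK cells with *Eomes* and lowest among the T cell fractions shown in *Foxp3* cells.

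The plot of fractions also gives *Ccr2*. In other T cells with *Cd4* *Ccr2* stood at 195 and 169.6 CPM, and in the rest of that class at 211 and 206. Myeloid cells with the monocyte genes *Ly6c2* and *Chil3* (39 and 10) held *Ccr2* at 631 (534 to 741) and 676 (481 to 925) CPM, and the myeloid cells that met none of the divisions (11 and 2) at 666 (469 to 919) and 940.4 (345 to 2047) CPM. Vehicle cells with the Kupffer cell genes *Clec4f*, *Cd5l* or *Vsig4* (27 cells) held 8 *Ccr2* UMIs, all in 1 cell, and 14 *Cxcl16* UMIs in 10 cells, or 158 (86.5 to 265) CPM of *Cxcl16*. The antibiotic library had 2 such cells. *Cxcl16* was highest in the cells that met none of the divisions, at 486 (320.5 to 708) and 784 (254 to 1829) CPM, and lower in the *Ly6c2* and *Chil3* cells, 67.8 (38.7 to 110.1) and 34.7 (4.20 to 125) CPM.

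Whether the receptors were seen in the same cells was asked after thinning. In other T cells a *Cxcr3* UMI was present in 51.2% of vehicle and 43.8% of antibiotic cells with a *Cxcr6* UMI, and in 33.8% and 35.9% of those without. In CD8 T cells the shares were 36.4% and 38.1% with and 11.3% and 17% without, and in NK cells 42.2% and 56.5% with and 12.3% and 22.4% without. B cells, the background class, showed the same direction, 12.7% and 13.8% with and 3.24% and 2.18% without; the part of doublets and free RNA in these differences was not tested. In iNKT cells the shares were 46.5% and 41.2% with and 44.9% and 41.9% without, with overlapping intervals. *Ccr2* in NK cells leaned the other way: 11.1% and 8.70% of those with a *Cxcr6* UMI had one, against 20.9% and 28.9% of those without, again with overlapping intervals. All 3 receptors were seen in 9.39% and 8.89% of iNKT cells, 11.3% and 8.24% of other T cells and 0.0332% and 0.149% of B cells at this depth.

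Over the 14 class profiles (7 gated classes in each library) the log2 levels of *Cxcr6* and *Cxcr3* had a Pearson correlation of 0.93, and those of *Cxcr6* and *Ccr2* of 0.08. Profiles of a library share its free RNA and are not independent, so these values only describe the likeness of the patterns. Among 9958 genes, those most like *Cxcr6* were *Meis3* (0.97), *Abhd8*, *Cd226* (a receptor of activated lymphocytes), *Adgrl1* and *Abcb9*. Those most like *Cxcr3* were *Aes*, *Sytl1*, *Cd28* (the T cell costimulatory receptor), *Qsox1* and *Cd82*, from 0.98 to 0.94. For *Ccr2* they were *Tnfrsf1a* (a receptor for TNF), *Ndufa8*, *Ube2l3*, *Smox* and *Entpd1*, from 0.96 to 0.93. For *Cxcl16* they were *Apoc1*, *Igsf6*, *C1qc*, *Clec4a3* and *C1qb*, from 0.99; *C1qb* and *C1qc* encode complement chains made by macrophages.

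The ligands of the other receptors were looked for in the same cells. Of the CXCR3 ligands, *Cxcl9* and *Cxcl10* were in the files, and both were highest in myeloid cells. *Cxcl9* stood there at 212 and 47.9 CPM (103 and 5 UMIs), a ratio of 0.226 (0.0719 to 0.545). This interval takes no account of how the UMIs were spread over the 100 and 19 cells. A ratio of 1.5 in either direction was passed by 37.5% of genes tested in myeloid cells. *Cxcl10* stood at 218 and 1418 CPM, but its 148 antibiotic UMIs came from 5.26% of 19 cells, that is, from 1 cell. *Ccl2*, the main CCR2 ligand, stood at 51.4 and 383 CPM, and its 40 antibiotic UMIs likewise came from 1 cell, so no difference between treatments can be read from either. *Ccl7*, *Ccl8* and *Ccl12*, the other CCR2 ligands listed, had 7 or fewer UMIs each in all cells of both libraries together. *Adam10* and *Adam17*, which shed CXCL16, were seen at low levels in other T cells, 24.3 and 27 CPM and 15 and 13.7 CPM, and in myeloid cells at 51.4 and 47.9 CPM and 41.1 and 28.8 CPM.

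Other chemokine receptors were compared in the same way. Of 19 listed, 9 had at least 20 UMIs in other T cells, 3 higher and 6 lower in the antibiotic library, with a median log2 ratio of -0.50, against -0.082 over all genes tested. The 2 medians are not of like genes: all genes tested reached 50 CPM, and of the receptors named here only *Ccr7* did. *Ccr9*, a gut-homing receptor, had 45.7 and 47.9 CPM, with a ratio of 1.05 (0.942 to 1.16), and *Ccrl2* 16.6 and 17.3 CPM, with a ratio of 1.04 (0.872 to 1.25). *Ccr7*, the receptor for lymph node entry, and *Ccr4* were lower after antibiotics, at 51.9 and 36.8 CPM and 7.37 and 5.26 CPM, and *Cxcr4* was higher, at 1.84 and 4.71 CPM.

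Among genes that carry the signal of these receptors, 14 of 15 listed were measured in other T cells, 3 higher and 11 lower after antibiotics (median log2 ratio -0.078). The same numbers were found in iNKT cells, 3 higher and 11 lower of 14 (median -0.10), near the median of all genes in both classes. *Rgs1*, which shuts off chemokine receptor signaling, was lower in other T cells (214 and 143 CPM) and iNKT cells (229 and 146 CPM). *Rac2*, which drives the leading edge of moving leukocytes, stood at 2078 and 1742 CPM in other T cells, and *Gnai2*, the G protein subunit behind chemotaxis, at 404 and 318 CPM. *Gnb2* (301 and 282 CPM), *Rac1* (263 and 263 CPM) and *Gnb1* (145 and 143 CPM) differed by less. Scaling without ribosomal and mitochondrial genes shifts each log2 ratio up by 0.15 in other T and 0.17 in iNKT cells, so that genes below 0 by less than this change direction. In NK cells 3 of 13 were higher and 10 lower (median -0.20, against 0.040 over all genes tested), with *Rgs1* at 353 and 187 CPM, and in CD8 T cells 8 of 14 were higher and 6 lower (median 0.028, against 0.021).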

How the data were processed

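The libraries of CD45+ mouse liver cells, 1 from vehicle and 1 from antibiotic-treated mice, were analysed. The deposited values are UMI counts made by the authors with Cell Ranger on mm10 after bcl2fastq, by the processing notes of the submitters; versions, annotation release and strand handling are not given in the sources used here. Counts were raw and covered every barcode of the kit. Cells were barcodes with at least 1500 UMIs and under 10% mitochondrial UMIs (13 and 1 barcodes left out for the latter).

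Gates, in order, were B (*Cd79a* at least 2 UMIs, no *Cd3e*), pDC (*Siglech* at least 2), NK (*Ncr1* at least 1, no *Cd3d*, *Cd3e* or *Cd3g*), iNKT (*Trav11* at least 1), CD8 T (*Cd8b1* and *Trac* at least 1), other T (*Trac* at least 2) and myeloid (*Lyz2* at least 5, *Csf1r* at least 1). UMIs were summed over the cells of a class. Levels carry exact Poisson intervals, ratios exact conditional intervals and shares Clopper-Pearson intervals, all at 95% and for counting error only. Thinning drew 1500 UMIs per cell without replacement (seed 0). Scrublet, as in scanpy, marked 400 (4.44%) and 141 (2%) cells as doublets; they were kept in the main values. The code was tested on simulated data.

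The 4 genes, the lists and the gates were chosen with earlier results of these data known. Genes named from a list are the up to 6 with the highest mean CPM in the class among those with at least 20 UMIs, with others named for a stated reason. List counts and medians take every listed gene with at least 20 UMIs, also those below the 50 CPM asked of all genes tested. *Cxcl11*, *Grk2* and *Itgam* were not used here, and results that rest on some other genes are not reported here. Likeness was Pearson's correlation of log2(CPM + 10) among genes with at least 50 UMIs per library, without the gate genes. Coordinates are from GENCODE vM21. Alternatives changed the UMI and mitochondrial limits, gates, doublets, free RNA, weighting, depth and scaling. The code ran in Python 3.11.15 with scanpy 1.11.5, pandas 2.3.3, scipy 1.17.1, numpy 2.4.6 and matplotlib 3.10.9.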

Additional observations from a re-analysis of the deposited data

Results flagged for a closer look

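The direction of the difference between libraries was not the same in all lymphocyte classes. For *Cxcr6* the log2 ratio, antibiotic over vehicle, was 0.88 in NK cells and 0.33 in CD8 T cells but -0.29 in iNKT cells and -0.31 in other T cells. For *Cxcr3* it was 0.73 and 0.43 against -0.28 and -0.24. With 1 library a treatment the difference between classes was not tested, and the NK values rest on 256 vehicle and 99 antibiotic cells.

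Barcodes that were not called as cells also carried the receptors. In barcodes with 1 to 50 UMIs, taken here to hold free RNA, the ratio of antibiotic to vehicle CPM was 1.22 (1.14 to 1.31) for *Cxcr6*, 1.29 (1.18 to 1.41) for *Cxcr3* and 1.35 (1.17 to 1.57) for *Ccr2*. In barcodes with at least 500 and under 1500 UMIs the ratio was 1.21 (1.02 to 1.44) for *Cxcr6*, 1.01 (0.786 to 1.29) for *Cxcr3* and 1.41 (0.969 to 2.03) for *Ccr2*.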

How the results depend on the processing

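The log2 ratios of the 4 genes (25 values by class) were computed under 13 other settings, which gave 277 values: 242 moved by less than the main counting interval, 32 moved by more and 3, among values whose main interval left out 0, changed sign. Another 10 values changed sign in 6 results whose main interval holds 0, namely *Cxcr6* in pDC, *Cxcr3* in B cells, *Cxcl16* in other T cells and *Ccr2* in B, iNKT and other T cells. With class shares as in the vehicle library, all cells gave -0.19 for *Cxcr6* and -0.11 for *Cxcr3*, both with changed sign, 0.092 for *Ccr2* and -0.10 for *Cxcl16*. *Ccr2* in pDC changed sign, to -0.18, when free RNA set from hepatocyte and hemoglobin genes was subtracted (9.88% in vehicle and 64.1% in antibiotic pDC). With free RNA set from *Cxcr6* in B cells it stayed at 0.58. The directions of *Cxcr6* and *Cxcr3* in iNKT, other T, CD8 T and NK cells held under every setting run for them. Scaling without ribosomal and mitochondrial genes, which shifts the median of all genes too, gave *Cxcr6* -0.12 in iNKT, -0.16 in other T and 0.30 in all cells, *Cxcr3* -0.11, -0.089 and 0.31, and *Ccr2* 0.12 in other T and 0.43 in all cells. Free RNA subtraction gave *Cxcr6* 0.44 in NK and -0.19 in other T cells, *Cxcr3* -0.061 and *Ccr2* 0.11 in other T cells. Stricter gates gave *Cxcr6* 0.14 in CD8 T and *Cxcr3* -0.077 in iNKT cells. Thinning gave *Cxcr3* -0.34 in other T, *Ccr2* 0.81 in myeloid cells, and in all cells *Cxcr6* 0.29, *Ccr2* 0.42 and *Cxcl16* -1.55. In pDC *Cxcr6* went from 0.10 to 1.32 without doublets, to 1.53 with only cells that met 1 gate and to -0.89 after thinning. Weighting cells alike gave, in all cells, *Cxcr6* 0.26, *Cxcr3* 0.27, *Ccr2* 0.42 and *Cxcl16* -1.25, and a limit of 2000 UMIs *Cxcr6* 0.21. Apart from the class shares and the scaling, whose construction sets the shift, the cause was not tested.

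The free RNA share set from hepatocyte and hemoglobin genes reached 100% in B cells, vehicle iNKT cells and all cells, so that no value was had there. Nor did its subtraction give a value for *Ccr2* or *Cxcl16* in myeloid cells. The same held for *Cxcr6* and *Cxcr3* in pDC and for *Cxcl16* in other T cells. In the setting that keeps cells meeting 1 gate, the 3 T cell gates counted as 1. The settings without barcodes found in both libraries and with free RNA set from *Cxcr6* in B cells (10.1% and 9.02%) were chosen after seeing the data. The latter takes every *Cxcr6* UMI of the B cells as free RNA. No paired analysis was possible because each treatment has 1 library. *Cxcl16* and all pDC and antibiotic myeloid values are limited by few UMIs.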

Other observations

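Genes of adhesion, retention and egress were mostly lower in the antibiotic library in other T cells (12 of 13 measured, median log2 ratio -0.29, against -0.082 over all genes tested) and in iNKT cells (10 of 11, -0.24, against -0.10). In other T cells the integrin genes *Itgb7* (245 and 155 CPM), *Itgb2* (356 and 290.3 CPM), *Itgal* (165 and 138 CPM) and *Itgb1* (163 and 153 CPM) stood beside *Cd44* (116 and 103 CPM) and the retention gene *Cd69* (109 and 77.6 CPM). In CD8 T cells 10 of 13 were higher (median 0.099, against 0.021 over all genes tested). Among them was *Itga4* (118 and 149 CPM), while *Itgb7* was lower (269.8 and 202 CPM). In NK cells 5 of 12 were higher and 7 lower (median -0.19, against 0.040 over all genes tested).

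Of 10 transcription factors of resident and effector lymphocytes, 4 were higher and 6 lower in other T cells, 3 and 6 of 9 in iNKT cells, 5 and 3 of 8 in NK cells and 5 and 4 of 9 in CD8 T cells. Their median log2 ratio was -0.068 in other T, -0.46 in iNKT, 0.19 in NK and 0.084 in CD8 T cells. Over all genes tested the medians in these classes were -0.082, -0.10, 0.040 and 0.021. *Tbx21*, which encodes T-bet, a factor that acts on *Cxcr3*, stood at 92.9 and 81.6 CPM in other T cells and 161 and 133 CPM in NK cells. *Klf2*, a factor of circulating cells, stood at 341 and 262 CPM in other T cells and 174 and 119 CPM in iNKT cells, *Rora* at 93.7 and 95.3 CPM and 126 and 91.7 CPM, and *Runx3* at 84.9 and 88.5 CPM and 107 and 72.3 CPM. In NK cells *Klf2* stood at 1057 and 1037 CPM and *Eomes* at 144 and 109 CPM.

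Over all called cells, markers of cells outside the classes were more abundant in the vehicle library. There, 7 neutrophil genes stood at 1073 and 54 CPM, 7 erythroid and platelet genes at 2172 and 502, 10 hepatocyte genes at 108 and 42.6 and 10 endothelial genes at 128 and 59.1. This did not hold in every class. In B cells the erythroid and platelet genes stood at 1676 and 2190 CPM and the endothelial genes at 177 and 198. Neutrophil genes stood there at 139 and 15.7 CPM and hepatocyte genes at 83.7 and 20.5.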
